A study of Mus musculus with 12 samples.

Results

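Fat cells in the newborn skull bone were followed through 10 genes of white adipocytes, namely Pparg, Cebpa, Fabp4, Lpl, Plin1, Cidec, Cfd, Adipoq, Retn and Car3. They were chosen by name as adipocyte genes from 23727 genes measured in the calvaria, the flat bones of the skull vault. Earlier results of these data were known at that choice, so shares over all genes are no blind reference for counts of fat genes. Each gene's level was the sum of the FPKM (fragments mapped, scaled to transcript length and library size) of its RefSeq transcripts, in each of 12 mice. At least 1 FPKM in at least 3 mice was required for a test, which 13060 genes met, among them 9 of the 10 fat genes. Cidec did not meet it and is described only.

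Fat cells and bone-forming osteoblasts can arise from the same mesenchymal progenitors. The nuclear receptor PPARγ, encoded by Pparg, and the leucine zipper factor C/EBPα, encoded by Cebpa, drive the fat cell program together, and their targets include genes for fatty acid uptake, for the coat of the lipid droplet and for secreted hormones. Runx2, by contrast, is the transcription factor that commits progenitors to bone, and Med23 is a subunit of Mediator, the complex that links transcription factors to RNA polymerase II.

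RNA from calvaria of C57BL/6 mice was sequenced in 4 groups of 3 mice, 1 library per mouse. The labels give the age as newborn, and the study's methods give the parietal bone on postnatal day 2. The P-KO mice lacked Med23 in mesenchymal stem cells, and P-Ctrl were their control littermates, labelled wild type. Elsewhere the study describes such controls as carrying floxed Med23. In P-KO the Cre recombinase was driven by Prx1, which is active in limb and part of the head mesenchyme, so that other cells of the bone kept Med23. The R-Het mice carried 1 functional copy of Runx2 in every cell (Runx2+/-), and R-WT were their wild-type controls.

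The deposited FPKM summed to between 891329 and 1068933 per mouse, and the libraries held an estimated 7910000 to 11700000 fragments. Every P-KO library was smaller than every P-Ctrl library, at 8190000 to 8880000 against 9370000 to 11400000 fragments. R-Het libraries held 7910000 to 10000000 and R-WT libraries 9070000 to 11700000. Med23 itself was at 5.32 ± 0.73 FPKM in P-Ctrl and 5.30 ± 0.42 in P-KO (SD, n = 3), so its summed level did not separate these groups. Runx2 was likewise not lower in R-Het, at 33.5 ± 2.76 FPKM against 31.6 ± 5.39 in R-WT. A summed level need not show a deleted exon or a disrupted allele, and neither gene therefore checks the labels. Xist, transcribed in females, was at 37.8 FPKM or more in P-Ctrl mouse 2, P-Ctrl mouse 3 and R-WT mouse 1, and at 0.0663 FPKM or less in the other 9 mice, so that every mutant mouse was without it. The labels gave no sex, and 1 P-Ctrl mouse without Xist leaves too few to compare within the Med23 set. Calvaria also carried attached tissue, and the summed FPKM of 12 skeletal muscle genes ranged from 26.9 to 6452 over the mice.

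Levels differed widely among the fat genes. By FPKM, a scale corrected for transcript length, Fabp4 and Car3 were the most abundant, with means over 12 mice of 354.9 and 160 FPKM. Lpl followed at 17.1 FPKM. The 3 secreted products and the 2 droplet coat genes were scarce, from 5.26 FPKM for Adipoq to 0.668 for Plin1. Cfd averaged 2.58 FPKM, Pparg 1.98, Cebpa 5.19, Retn 1.20 and Cidec 0.861.

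No fat gene passed an adjusted p of 0.05 in either mutant. In P-KO against P-Ctrl 0 of 9 were called, where 1.57% of all tested genes were, 0.559% lower and 1.01% higher. R-Het against R-WT again gave 0 of 9, with 1.89% of all tested genes called, 1.49% lower and 0.398% higher (limma on log2(FPKM + 1), Benjamini-Hochberg adjustment over 13060 genes). At an unadjusted p under 0.05 there were 2 fat genes in P-KO, Cfd and Cebpa, against a background of 21.3% of genes, and 4 in R-Het, Cfd, Fabp4, Lpl and Pparg, against 15.4%. In P-KO 5 of the 9 fold changes were below 0, and in R-Het 8 of 9, where 38.7% and 43.9% of all tested genes were. Their median on the log2 scale was -0.15 in P-KO and -0.63 in R-Het, and 0.06 and 0.02 over all tested genes. In whole bone, fewer cells of a type and less RNA per cell cannot be told apart.

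**Figure D1:**
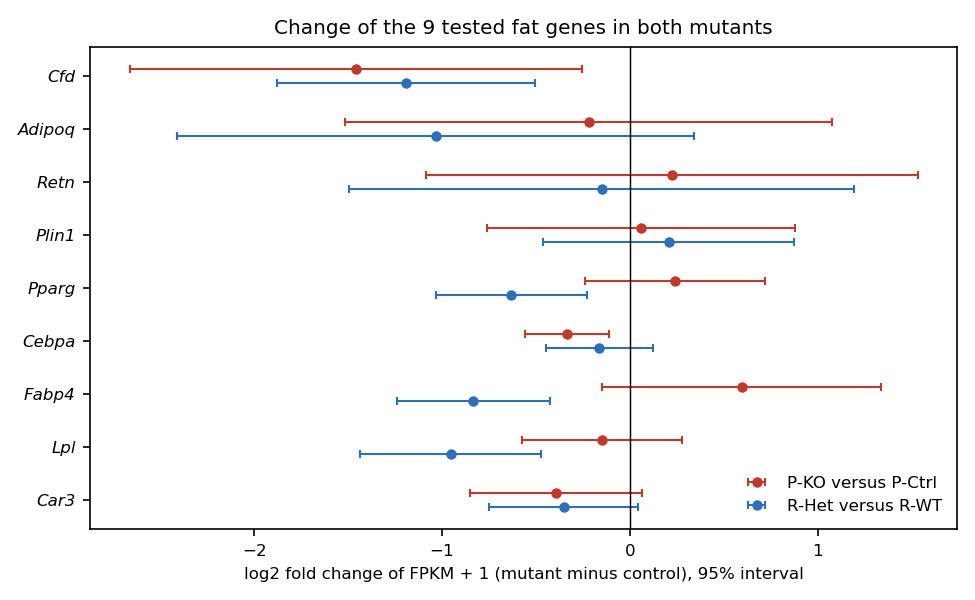
Log2 fold change of FPKM + 1 (x axis) for the 9 tested fat genes (y axis) in P-KO against P-Ctrl (red) and R-Het against R-WT (blue); points are limma estimates, bars their 95% intervals, not adjusted for multiple testing. Cfd lies below 0 in both mutants, at -1.46 and -1.19, while Fabp4 and Pparg lie above 0 in P-KO and below it in R-Het.

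Cfd encodes adipsin, or complement factor D, a serine protease that fat cells secrete and that activates the alternative complement pathway. The gene lies at chr10:79890853-79892655 of GRCm38. The 250 bases before its transcription start are shown with those of Adipoq, since these 2 secreted products are compared mouse by mouse. Both are 5′ to 3′ on the gene's strand, from RefSeq on GRCm38.p6, and are all in lower case because none of the 4 motifs searched (given with Pparg) occurred in them.
Cfd, chr10:79890603-79890852, plus strand: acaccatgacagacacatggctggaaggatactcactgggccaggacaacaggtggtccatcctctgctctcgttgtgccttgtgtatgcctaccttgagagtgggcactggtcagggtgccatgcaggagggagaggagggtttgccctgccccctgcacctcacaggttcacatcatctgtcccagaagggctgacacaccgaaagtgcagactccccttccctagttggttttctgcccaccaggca
Adipoq, chr16:23146286-23146535, plus strand: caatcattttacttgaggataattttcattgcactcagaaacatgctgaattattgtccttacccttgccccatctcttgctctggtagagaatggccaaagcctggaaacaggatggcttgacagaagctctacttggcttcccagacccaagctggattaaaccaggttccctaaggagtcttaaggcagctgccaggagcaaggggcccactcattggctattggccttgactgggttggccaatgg

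Cfd was at 2.98, 2.34 and 13.2 FPKM in the 3 P-Ctrl mice and at 1.12, 1.62 and 0.643 FPKM in P-KO. It was at 2.24, 2.62 and 2.37 FPKM in R-WT and at 0.143, 0.156 and 1.52 FPKM in R-Het. Every mutant mouse was thus below every mouse of its control group, and the R-WT mice lay close together. P-Ctrl mouse 3 stood far above the rest, and R-Het mouse 3 was high in its group. Of the 9 fat genes Cfd alone had non-overlapping lower values in both mutants, which 1.7% of all tested genes also had.

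The log2 fold change of Cfd was -1.46 (SE 0.51) in P-KO, with an adjusted p of 0.174 by limma. In R-Het it was -1.19 (SE 0.30), with an adjusted p of 0.0963. Both missed the threshold. Without P-Ctrl mouse 3 the P-KO change was -0.80 (SE 0.23, limma adjusted p 0.163), with the groups still apart, and without R-Het mouse 3 the R-Het change was -1.57 (SE 0.14, limma adjusted p 0.0184). Both mice were singled out for their high values, and no other fit without 1 mouse passed the threshold. The Cfd levels rested on few molecules: an estimated 24 to 110 Cfd fragments per P-Ctrl library, 5.3 to 12 per P-KO library, 20 to 24 in R-WT and 1.3 to 11 in R-Het. These fragment numbers are not scaled to library size.

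Adipoq encodes adiponectin, the most fat-restricted of the hormones here, at chr16:23146536-23157968. It was at 3.39, 4.26 and 21.3 FPKM in P-Ctrl and at 6.03, 6.04 and 5.63 FPKM in P-KO. R-WT had 2.90, 3.65 and 3.76 FPKM, and R-Het had 0, 0.542 and 5.52 FPKM. The P-KO mice lay between the 2 lower P-Ctrl mice and the high one, and in R-Het 2 mice were below all R-WT mice and the third above them. The changes were -0.22 (SE 0.55, limma adjusted p 0.854) in P-KO and -1.03 (SE 0.60, limma adjusted p 0.471) in R-Het, on the log2 scale. Each depended on 1 mouse. Without P-Ctrl mouse 3 the P-KO change turned to 0.52 (limma adjusted p 0.128), and without R-Het mouse 3 the R-Het change was -1.83 (limma adjusted p 0.0285). Both mice were singled out for their high values, and no other fit without 1 mouse passed the threshold.

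Set against Adipoq in the same mouse, Cfd varied less among the P-Ctrl mice, a comparison chosen after the values were seen and given without a test. The ratio of Cfd to Adipoq FPKM was 0.880, 0.549 and 0.617 in P-Ctrl and 0.185, 0.268 and 0.114 in P-KO. It was 0.774, 0.718 and 0.631 in R-WT. In R-Het it was 0.287 and 0.276 in mice 2 and 3, and mouse 1 had no Adipoq to divide by. All 6 control mice, P-Ctrl mouse 3 included, were at 0.549 or more, and all 5 mutant mice with a ratio were at 0.287 or less. In R-Het mouse 2, Cfd rested on 1.3 fragments and Adipoq on 6.2. Other ratios to Adipoq parted in 1 set too. Cidec per Adipoq overlapped in the Med23 set (0.0807 to 0.158 in P-Ctrl, 0.130 to 0.158 in P-KO) but was higher in R-Het, at 0.504 and 0.354 against 0.102 to 0.293 in R-WT. Plin1 per Adipoq likewise was 0.676 and 0.228 in R-Het and 0.0338 to 0.134 in R-WT.

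**Figure D2:**
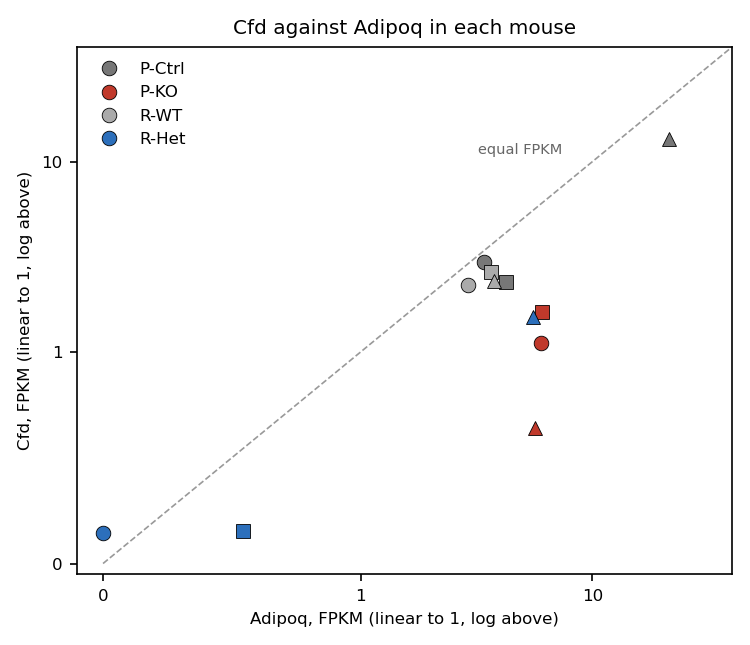
Cfd FPKM (y axis) against Adipoq FPKM (x axis) in 12 mice, on axes linear to 1 FPKM and logarithmic above; colours give the group, circle, square and triangle mice 1, 2 and 3, and the dashed line equal FPKM. The control mice lie just below the line, and the P-KO mice and R-Het mouse 3 lie further below it at 5.52 to 6.04 FPKM of Adipoq.

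Retn, at chr8:3655770-3659818, encodes resistin, a small peptide made by mouse fat cells. It was at 0.212, 0.216 and 3.42 FPKM in P-Ctrl and 0.270, 2.16 and 1.59 FPKM in P-KO. R-WT mice were at 0.809, 0.378 and 1.60 FPKM, and R-Het mice at 0, 0 and 3.75 FPKM. The groups overlapped in both comparisons, and the highest mouse of P-Ctrl and of R-Het was again mouse 3. Log2 changes were 0.22 (SE 0.56, limma adjusted p 0.85) and -0.15 (SE 0.58, limma adjusted p 0.934).

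Perilipin 1, encoded by Plin1 at chr7:79721164-79732904, coats the fat droplet and guards it from lipases. Plin1 was at 0.462, 0.204 and 2.20 FPKM in P-Ctrl and at 0.692, 1.08 and 0.817 FPKM in P-KO. In R-WT it was at 0.265, 0.489 and 0.127 FPKM, and in R-Het at 0.0561, 0.367 and 1.26 FPKM. These groups overlapped, with log2 changes of 0.06 (SE 0.35, limma adjusted p 0.944) and 0.21 (SE 0.29, limma adjusted p 0.795). Cidec, at chr6:113424634-113435760, encodes a protein that fuses droplets into the single large one of white fat. Cidec was at 0.537, 0.343 and 2.999 FPKM in P-Ctrl and 0.916, 0.782 and 0.891 FPKM in P-KO. R-WT mice had 0.849, 0.372 and 0.410 FPKM, and R-Het mice 0, 0.273 and 1.95 FPKM. P-Ctrl mouse 3 was again the highest of all 12 mice in both genes.

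The plots of single mice show this shared pattern. Across 12 mice, Plin1 and Cidec had a Pearson r of 0.90 on the log2(FPKM + 1) scale, Adipoq and Cidec 0.84, and Cfd and Adipoq 0.79. After each group's mean was removed these were 0.92, 0.95 and 0.91. All values of a mouse came from 1 library, and P-Ctrl mouse 3 and R-Het mouse 3 carried much of the range. Without P-Ctrl mouse 3 the P-KO mice were above both remaining P-Ctrl mice in 4 of the 9 genes (Adipoq, Plin1, Fabp4 and Retn) and below them in 2 (Cfd and Cebpa), where 24.3% and 13.3% of all tested genes were. With all mice the counts were 0 and 2, against 19.6% and 7.69%. P-Ctrl mouse 3 was left out because it was high in these fat genes. The shares over all genes are therefore no like reference for the counts without it.

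**Figure D3:**
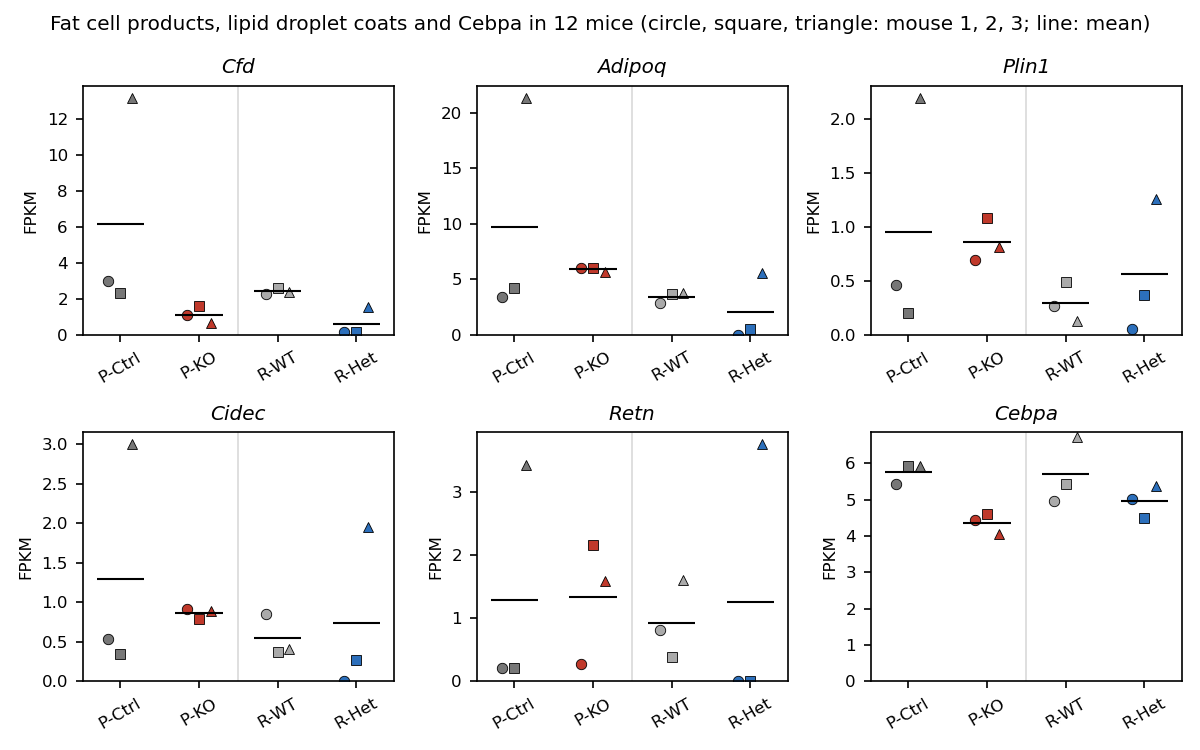
FPKM (y axes, from 0, scaled per gene) of Cfd, Adipoq, Plin1, Cidec, Retn and Cebpa in the 4 groups (x axes); circle, square and triangle are mice 1, 2 and 3, and lines are group means. P-Ctrl mouse 3 is the highest P-Ctrl mouse in the first 5 panels, reaching 21.3 FPKM of Adipoq, while Cebpa varies little.

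Pparg, the first of the 2 master regulators, lies at chr6:115360879-115490404 and has alternative starts: the upstream ones give the widely expressed form and the downstream one the form typical of fat cells. Promoter windows were found for 7 of the 10 fat genes, 10 windows in all, and matched by symbol. The 250 bases before each start were searched on both strands for the C/EBP motif TTGCNNAA, the RUNX motif TGTGGT, the nuclear receptor core site AGGTCA and the direct repeat bound by PPAR-RXR (DR1), which is 2 core sites with 1 base between them and so contains the core site. These occurred in 9.56%, 14%, 14% and 0.0335% of 32851 RefSeq windows of the same length. The windows shown are those of the fat genes with 2 C/EBP matches, the fat cell start of Pparg and Plin1, with the matches in capitals (RefSeq, GRCm38.p6, 5′ to 3′ on the gene's strand).
Pparg, chr6:115421816-115422065, plus strand: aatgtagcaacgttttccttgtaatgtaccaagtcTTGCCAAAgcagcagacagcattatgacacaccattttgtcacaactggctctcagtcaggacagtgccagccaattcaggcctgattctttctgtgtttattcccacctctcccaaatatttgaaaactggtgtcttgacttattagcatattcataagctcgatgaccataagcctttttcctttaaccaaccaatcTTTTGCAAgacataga
Plin1, chr7:79732777-79733026, minus strand: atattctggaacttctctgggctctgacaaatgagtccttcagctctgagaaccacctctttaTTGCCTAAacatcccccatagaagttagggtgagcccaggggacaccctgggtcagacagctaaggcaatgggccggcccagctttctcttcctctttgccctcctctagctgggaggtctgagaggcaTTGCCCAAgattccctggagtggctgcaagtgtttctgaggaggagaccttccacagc
Relative to the start, the matches began at -215 and -16 in Pparg and at -187 and -58 in Plin1. One of the 2 Cidec windows held another C/EBP match and the 2 upstream Pparg windows held 1 core site each. No RUNX motif and no direct repeat occurred in the 10 windows. A match of letters is not a bound site.

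Summed over its 2 transcripts, Pparg was at 1.24, 2.58 and 2.08 FPKM in P-Ctrl and 3.06, 2.40 and 1.96 FPKM in P-KO, which overlapped. It was at 2.61, 1.75 and 2.63 FPKM in R-WT and 0.814, 1.495 and 1.14 FPKM in R-Het, with every R-Het mouse below every R-WT mouse. The log2 change was 0.24 (SE 0.21, limma adjusted p 0.537) in P-KO and -0.63 (SE 0.17, limma adjusted p 0.129) in R-Het. The transcript from the fat cell start was at 0 to 1.48 FPKM over the 12 mice, and the other at 0.260 to 2.97 FPKM. The 2 share most of their exons, and how reads were split between them is uncertain.

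Cebpa, at chr7:35119293-35121928, was the steadiest of the fat genes in P-Ctrl, at 5.42, 5.91 and 5.91 FPKM. In P-KO it was at 4.42, 4.61 and 4.05 FPKM, below every P-Ctrl mouse. R-WT had 4.97, 5.42 and 6.71 FPKM and R-Het 5.03, 4.49 and 5.38 FPKM, which overlapped. The log2 change was -0.33 (SE 0.10, limma adjusted p 0.117) in P-KO and -0.16 (SE 0.12, limma adjusted p 0.587) in R-Het.

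Fabp4 and Lpl act in fatty acid handling and are less restricted to fat cells. Fabp4, at chr3:10204342-10208616, encodes the fatty acid binding protein of adipocytes, which capillary endothelium and macrophages also make. It was at 192, 307 and 511 FPKM in P-Ctrl and 544, 439 and 438 FPKM in P-KO. R-WT mice had 455, 302 and 417 FPKM and R-Het mice 179, 238 and 237 FPKM. P-KO and P-Ctrl overlapped only through P-Ctrl mouse 3, and all R-Het mice were below all R-WT mice. The log2 change was 0.60 (SE 0.32, limma adjusted p 0.326) in P-KO and -0.83 (SE 0.18, limma adjusted p 0.0632) in R-Het. The R-Het change passed the threshold when each mouse's values were rescaled to the same sum (-0.80, limma adjusted p 0.0280) and without R-WT mouse 2 (-1.01, limma adjusted p 0.0404).

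Lpl, at chr8:68880555-68906932, encodes lipoprotein lipase, which frees fatty acids from circulating triglyceride and is made by muscle as well as fat. P-Ctrl mice were at 21.0, 17.3 and 21.3 FPKM and P-KO mice at 23.0, 17.9 and 13.5 FPKM. R-WT mice were at 20.6, 19.7 and 19.7 FPKM, and R-Het mice at 6.44, 11.97 and 12.3 FPKM. P-KO and P-Ctrl overlapped, while the R-Het mice were all below the narrow range of R-WT. The log2 change was -0.15 (SE 0.18, limma adjusted p 0.686) in P-KO and -0.95 (SE 0.21, limma adjusted p 0.0685) in R-Het. Without R-Het mouse 1, the lowest, the R-Het change was -0.68 (limma adjusted p 0.0389).

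Car3, at chr3:14863538-14872381, encodes carbonic anhydrase III, abundant in white fat and in slow muscle fibers. It was at 223, 146 and 211 FPKM in P-Ctrl and 160, 164 and 115 FPKM in P-KO. R-WT mice lay close together at 171, 167 and 163 FPKM, with R-Het at 146, 158 and 96.8 FPKM. P-Ctrl and P-KO overlapped through P-Ctrl mouse 2, and the R-Het mice were below all R-WT mice. The log2 changes were -0.39 (SE 0.20, limma adjusted p 0.296) and -0.35 (SE 0.17, limma adjusted p 0.385). In R-Het, then, 5 of the 9 fat genes (Cfd, Fabp4, Lpl, Pparg and Car3) were lower with no overlap, against 10.4% of all tested genes, and none was higher, against 10.7%. Without R-WT mouse 1, the one with Xist in the Runx2 set, the changes were -1.23 for Cfd, -0.71 for Fabp4, -0.93 for Lpl and -0.57 for Pparg, with limma adjusted p from 0.214 to 0.378. These are the 4 with an unadjusted p under 0.05 in R-Het (limma). For Car3 the change ranged from -0.49 to -0.14 over the 6 fits without 1 mouse (limma adjusted p 0.269 to 0.649). Without R-Het mouse 3, Adipoq and Retn joined the 5 non-overlapping genes, 7 of 9 against 14.2%, and none was higher, against 22.8%. R-Het mouse 3 was left out because it was high in fat genes, Adipoq and Retn among them. Shares over all genes are therefore no like reference for the counts without it.

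**Figure D4:**
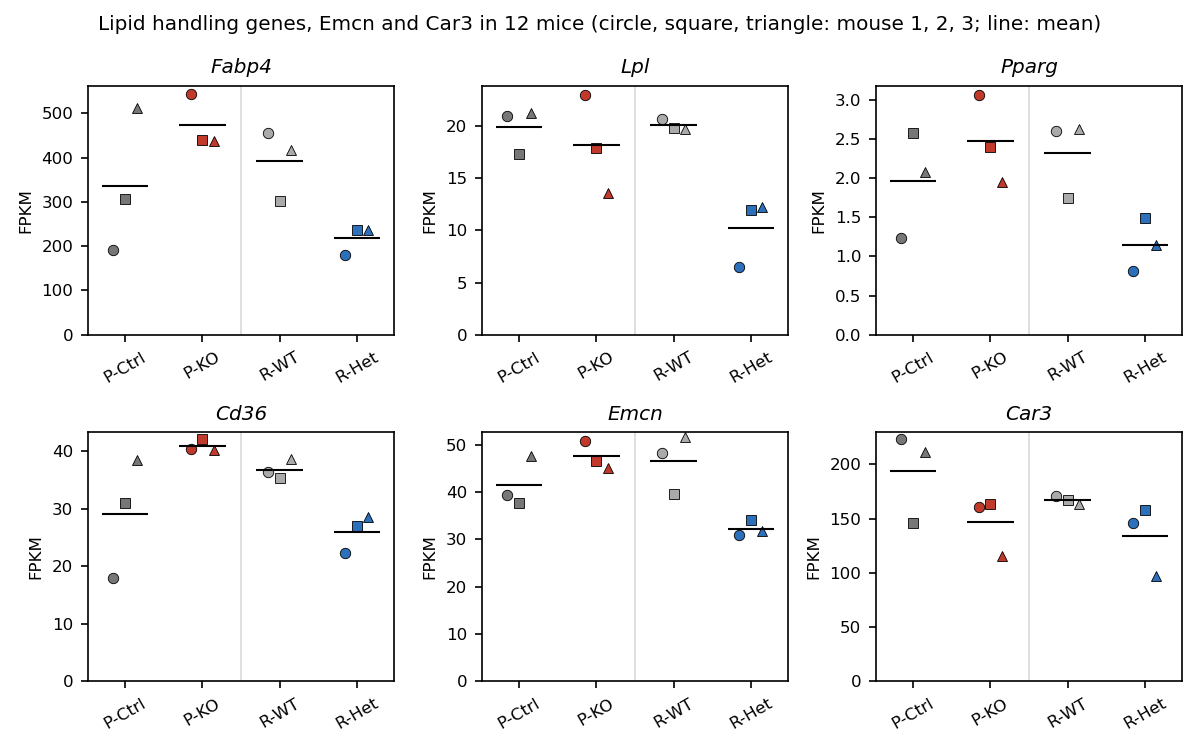
FPKM (y axes, from 0, scaled per gene) of Fabp4, Lpl, Pparg, Cd36, the endothelial gene Emcn and Car3 in the 4 groups (x axes); circle, square and triangle are mice 1, 2 and 3, and lines are group means. In all 6 panels the R-Het mice lie below the R-WT mice, for Lpl at 6.44 to 12.3 FPKM against 19.7 to 20.6.

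Whether a fat gene differed between the mutants was tested directly, as the P-KO change minus the R-Het change in 12 mice. None of 9 was called, with 0.153% of all tested genes called, 0.0919% lower and 0.0613% higher. At an unadjusted p under 0.05 there were 3, Fabp4, Lpl and Pparg, with 15.3% of all tested genes. The difference was 1.43 (SE 0.40, limma adjusted p 0.127) for Fabp4, 0.87 (limma adjusted p 0.172) for Pparg and 0.81 (limma adjusted p 0.238) for Lpl, on the log2 scale. For Cfd it was -0.27, with a 95% interval from -1.72 to 1.19.

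Markers of other tissues also differed between the groups. Of all tested genes, 21.3% in P-KO and 15.4% in R-Het had an unadjusted p under 0.05 (limma). The 12 skeletal muscle genes summed to 2219, 2162 and 6452 FPKM in R-WT and to 213, 175 and 31.1 FPKM in R-Het, and 11 of the 12 fell. In the Med23 set they summed to 1571, 26.9 and 364 FPKM in P-Ctrl and 4711, 676 and 3721 FPKM in P-KO, with none called and 3 at an unadjusted p under 0.05 (limma). The order of the 3 mice in Car3 was that of the muscle sum in P-Ctrl but not in P-KO, R-WT or R-Het. R-Het mouse 3 was lowest in both, while P-KO mouse 2, the lowest of its group in muscle, was the highest in Car3. In P-KO all 12 muscle genes lay above 0, and Car3 at -0.39. The 9 endothelial genes summed to 181 to 212 FPKM in R-WT and 149 to 169 FPKM in R-Het. Of these Pecam1, a junction protein of vessels, fell from 21.2 to 13.9 FPKM (log2 change -0.57, SE 0.08, limma adjusted p 0.0184), a call that was lost in 3 of the 6 fits without 1 mouse. Emcn, endomucin of capillaries and veins, was at 46.5 and 32.2 FPKM (-0.51, limma adjusted p 0.0663). Only these 2 of the 9 were lower with no overlap in R-Het (10.4% of all tested genes) or had an unadjusted p under 0.05 (limma). The other endothelial genes overlapped, with log2 changes from -0.30 for Cldn5 to -0.03 for Kdr. All 9 were below 0 in R-Het, with a median of -0.25 (0.02 over all tested genes). In P-KO 6 of the 9 were below 0, with a median of -0.16 (0.06 over all tested genes). In P-KO, Pecam1 (-0.35, limma adjusted p 0.110) and Kdr (-0.20, limma adjusted p 0.409) were lower with no overlap, against 7.69%. Macrophage genes summed to 445 to 467 FPKM in R-WT and 371 to 466 FPKM in R-Het, and none of 7 was called, with 1 at an unadjusted p under 0.05 (limma). Granulocyte genes summed to 300.3, 461.8 and 450 FPKM in R-WT and 107, 383 and 73.8 FPKM in R-Het. All 6 tested granulocyte genes were below 0 in R-Het (median log2 change -1.29), with 4 at an unadjusted p under 0.05 and none called (limma), and each overlapped between the groups. In P-KO 5 of the 6 were below 0 (median -0.48) and none had an unadjusted p under 0.05. The part of these markers in the lower Cfd, Fabp4, Lpl, Pparg and Car3 values was not tested.

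By likeness over the 12 mice (Pearson r of log2(FPKM + 1), a description over single libraries), the 5 genes closest to Fabp4 were Cav1 (0.92), Cd36 (0.92), Arl6ip1 (0.91), Trappc1 (0.91) and Top2a (0.91). Cd36, a fatty acid transporter, was at 17.9, 30.9 and 38.5 FPKM in P-Ctrl and 40.3, 42.1 and 40.2 FPKM in P-KO, and at 36.4, 35.3 and 38.7 FPKM in R-WT and 22.3, 26.9 and 28.7 FPKM in R-Het. Its groups did not overlap in either comparison, higher in P-KO (0.54, limma adjusted p 0.255) and lower in R-Het (-0.49, limma adjusted p 0.0660). Cfd was most like Hp (0.91), which encodes haptoglobin, followed by Ly6c2 (0.87), Isoc2b (0.86), Rln1 (0.86) and Mtmr14 (0.82). Rln1, which encodes the hormone relaxin, fell in R-Het (log2 change -1.42, limma adjusted p 0.0156), a call that 5 of the 6 fits without 1 mouse kept. Adipoq was most like Tspo (0.94), Phkg2 (0.85), Mtmr14 (0.85), Ptbp2 (0.84) and Hp (0.84), and Car3 most like D16Ertd472e (0.89), Caln1 (0.89), Ak5 (0.88), Dcaf11 (0.88) and Adam17 (0.88).

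Other genes of the fat program were read from fixed lists. Of 13 tested adipogenic factors Egr2, an early zinc finger factor, fell in P-KO, from 1.79, 2.16 and 1.53 FPKM to 0.68, 0.47 and 0.60 FPKM (log2 change -0.83, SE 0.15, limma adjusted p 0.0478). At an unadjusted p under 0.05 there were 3 in P-KO, Egr2, Stat5a (-0.62) and Rxrg (0.87), against 21.3% of all tested genes (limma). None of the 13 was called in R-Het, where 0 had an unadjusted p under 0.05, against 15.4%. Rxra, the partner receptor of PPARγ and the most abundant of these, was not called (0.05 and 0.19 on the log2 scale). Among 7 factors that oppose fat formation Nr2f2, the orphan receptor COUP-TFII, rose in P-KO, from 2.84, 3.40 and 3.08 FPKM to 6.504, 6.19 and 5.43 FPKM (0.78, SE 0.11, limma adjusted p 0.0315). Dlk1, the preadipocyte factor and the most abundant of that list, was at 22.0 to 24.4 FPKM in P-Ctrl and 26.1 to 36.7 FPKM in P-KO (0.47, limma adjusted p 0.121). Wnt10b of the same list went the other way with no overlap, from 9.92, 9.21 and 8.97 FPKM to 5.43, 6.80 and 6.49 FPKM (-0.52, limma adjusted p 0.0600). The median of the 7 in P-KO was 0.13, and 2 were below 0. At an unadjusted p under 0.05 there were 3 of the 7 in P-KO, Nr2f2, Dlk1 and Wnt10b, and 1 in R-Het, Klf2 (0.46, limma). The Egr2 and Nr2f2 calls were lost in every fit that left out 1 mouse, with adjusted p from 0.0934 to 0.141 and from 0.0662 to 0.122 (limma). With all mice they were also lost without the filter, after rescaling and with the highest-mean transcript, and Egr2 also with a pseudocount of 0.1 FPKM, with limma adjusted p from 0.0501 to 0.0682 for Egr2 over these and from 0.0639 to 0.0743 for Nr2f2.

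Of 8 tested lipid droplet and lipolysis genes Plin2, a droplet coat protein of most cell types, fell in R-Het, from 52.2, 46.4 and 50.03 FPKM to 32.4, 36.4 and 35.5 FPKM (log2 change -0.50, SE 0.09, limma adjusted p 0.0356). That call too was lost when any 1 mouse was left out, with adjusted p from 0.0522 to 0.152 (limma), and with all mice in 3 of the alternative fits (0.0565 to 0.107). Plin3, the most abundant droplet gene, was not called. None of 16 genes of lipid uptake and synthesis (the most abundant was Fabp5) and none of 7 adipokine and adipokine receptor genes (the most abundant was Adipor1) was called in either mutant. At an unadjusted p under 0.05 these 2 lists held 5 and 0 genes in P-KO and 8 and 2 in R-Het (limma). The shares over all tested genes were 21.3% and 15.4%. Of the 8 in R-Het, Fasn (0.36), Acaca (0.40), Scd1 (0.43) and Scd2 (0.40) were higher. Cd36 (-0.49), Acsl1 (-0.46), Slc2a4 (-0.66) and Gpihbp1 (-0.54) were lower, as were the 2 adipokine genes, Angptl4 (-0.38) and Cdh13 (-0.51). Of the 5 in P-KO, Fasn, Acly, Dgat2 and Slc2a4 were higher and Lmf1 lower. The medians of the 5 lists so far, as log2 changes, lay between -0.15 and 0.13 in P-KO and between -0.07 and 0.12 in R-Het.

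Of 8 genes listed for brown fat only 3 were tested. Dio2, the enzyme that activates thyroid hormone, fell in P-KO, from 31.9, 17.5 and 22.4 FPKM to 5.48, 5.63 and 3.70 FPKM (log2 change -2.05, SE 0.23, limma adjusted p 0.0211), a call lost in 5 of the 6 fits without 1 mouse, and was at 26.8 to 31.99 FPKM in R-WT and 12.5 to 29.1 FPKM in R-Het. Cox8b and Cox7a1, subunits of cytochrome c oxidase that striated muscle also uses, fell in R-Het by 4.42 and 2.56 on the log2 scale (limma adjusted p 0.0197 and 0.0372), beside the muscle genes above. Leaving out 1 mouse lost these calls in 1 and 5 of 6 fits. In P-KO they lay in the other direction, at 1.80 (SE 1.24, limma adjusted p 0.443) and 1.16 (SE 0.37, limma adjusted p 0.145), as all 12 muscle genes did. Ucp1, the uncoupling protein that defines brown fat, was listed at 0 in 11 mice and at 0.08 FPKM in P-Ctrl mouse 3. The part of muscle in the Cox8b and Cox7a1 values was not tested. In the bone list Bglap, osteocalcin, fell in P-KO (-1.95, limma adjusted p 0.0401), the only one of 10 osteoblast genes called there, and all 6 fits without 1 mouse lost that call. All 10 were below 0 in P-KO, with a median log2 change of -0.48, 8 at an unadjusted p under 0.05 (21.3% of all tested genes) and 5 lower with no overlap (7.69%). In R-Het the bone matrix genes Ibsp and Spp1 were lower with no overlap (-0.81 and -0.77, limma adjusted p 0.0551 and 0.0746), and 3 of 10 had an unadjusted p under 0.05.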

How the data were processed

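RNA from calvaria of 12 mice was sequenced after TruSeq preparation. The authors deposited 1 table per mouse with an FPKM value per RefSeq transcript. Their processing notes name Bowtie 0.12.8 and mm10 (GRCm38), and the program that computed FPKM is not given in the sources used here.

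Transcripts were given gene symbols from RefSeq (29831) or GENCODE M21 (168), 412 stayed unmatched and kept their own identifier, and FPKM were summed per gene. Of 23727 genes, the 13060 that reached 1 FPKM in 3 or more mice were fitted with limma 3.58.1 in R 4.3.3 (mean-variance trend, log2(FPKM + 1), 6 mice per comparison, 12 for the difference of both), which understates fold changes of low genes. P-values were two-sided, with Benjamini-Hochberg adjustment. The fit was tested on simulated data. Fragments per library were estimated from the smallest FPKM step of single-transcript genes of 2000 bases or more, and cover counting only. Positions and promoters are from RefSeq.

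The fat genes and all lists were chosen with earlier results of these data known. Named genes were the 10 fat genes, each listed gene with an adjusted p under 0.05 (muscle given as a count), the most abundant gene of each fat list, and the 5 genes most correlated with Cfd, Adipoq, Fabp4 and Car3. Further listed genes were named to give the directions within a list. In other lists the most abundant were Mylpf (muscle), Egfl7 (endothelium), C1qc (macrophage), S100a8 (granulocyte), Spp1 (osteoblast) and Krt10 (epidermis). No granulocyte or epidermis gene was called in either mutant by limma (for the 1 epidermis gene tested, unadjusted p was not under 0.05). Alternatives were another pseudocount (0.1), no filter, values rescaled to the same sum, the transcript with the highest mean, all 12 mice in 1 fit, a replicate block and leaving out each mouse.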

Additional observations from a re-analysis of the deposited data

How the results depend on the processing

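Of the 366 values of the 9 fat genes under the alternatives, 336 kept their direction and their side of the threshold, 25 turned and 5 newly passed it. With a pseudocount of 0.1 FPKM, the difference between the mutants turned to 0.43 for Cfd and 0.034 for Plin1. With 1 mouse left out at a time, the P-KO change ranged from -0.65 to 0.52 for Adipoq, from -0.22 to 0.48 for Plin1, from -0.32 to 0.037 for Lpl and from -0.087 to 0.85 for Retn. The R-Het change ranged from -0.10 to 0.45 for Plin1, from -0.90 to 0.23 for Retn and from -0.073 to 0.19 for Nr2f2, and the difference from -0.66 to 0.39 for Cfd, -0.43 to 0.28 for Plin1, -0.00034 to 1.12 for Retn and -0.26 to 0.12 for Car3.

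Counts over all genes moved most. The 73 lower and 132 higher genes in P-KO became 0 and 1 without the filter, 27 and 30 with the highest-mean transcript, and 190 and 527 with 12 mice in 1 fit, and the higher ones 41 when rescaled. The 195 lower and 52 higher in R-Het became 8 and 11, then 92 and 19, and the lower ones 56 with 12 mice. The difference, 12 and 8, became 6 and 0 without the filter, and its higher genes 20 when rescaled. Leaving out 1 mouse gave 0 to 13 lower and 0 to 22 higher in P-KO, 28 to 135 and 6 to 34 in R-Het, and 2 to 25 and 0 to 144 for the difference. Fewer samples were fitted there; for the rest the cause was not tested.

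With a replicate block, P-KO gave 93 lower and 181 higher genes, R-Het 69 lower and 21 higher, and the difference 119 higher. Same-numbered mice deviated with r of 0.18, 0.26 and 0.05 in the Med23 set, each P-Ctrl mouse correlating best with the P-KO mouse of its number. In the Runx2 set r was 0.01, -0.05 and -0.08, with no such match. The main fits did not take the numbers as pairs in either set, so a pairing in the Med23 set would be ignored there. No fat gene was called under the block, while Cox8b (1.80, limma adjusted p 0.0174) and Cox7a1 (1.16, limma adjusted p 0.0292) were called as higher in P-KO, with each same-numbered pair higher, and in the difference. Under the block Egr2 lost its P-KO call (limma adjusted p 0.0726), and Plin2 (0.121), Pecam1 (0.0672) and Cox8b (0.0543) their R-Het calls. Cfd, Adipoq, Retn, Plin1 and Cidec rested on few fragments, and absence of a call does not show equal levels.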
